A study of Caenorhabditis elegans with 2 samples.

Results

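The genes described here are the long intergenic non-coding RNA (lincRNA) genes and the antisense RNA genes of Caenorhabditis elegans, and the question is how much of the DNA-binding protein BED-1 was recovered at them. They were all genes with either biotype in the Ensembl annotation of the genome build WBcel235 (ce11), 294 of 46926 annotated genes, of which 194 were lincRNA genes and 100 were antisense RNA genes. BED-1 was mapped by chromatin immunoprecipitation with sequencing (ChIP-seq), which recovers DNA fragments crosslinked to a chosen protein. Both samples were biological replicates of the strain RW12201, in which CRISPR had inserted the TY1, EGFP and 3xFLAG tags into the endogenous bed-1 gene on chromosome V (st12201[bed-1::TY1::EGFP::3xFLAG] V), and fragments bound by the fusion protein were recovered by an anti-GFP antibody. The worms were whole young adults of 63 hours, synchronised as starved L1 larvae after bleaching, so sites in different cell types could not be separated. With 1 group and no untagged strain analysed here, no comparison between groups was possible, and the comparisons are between sets of genes.

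Many lincRNAs are transcribed from their own promoters by RNA polymerase II, spliced and polyadenylated, yet hold no long open reading frame, and a few of them regulate development. Antisense RNAs are transcribed from the strand opposite to another gene, so their DNA is also the DNA of that gene, often of its exons. The BED finger of BED-1 is a zinc-binding fold that contacts DNA, and chromatin proteins as well as transposases have it.

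For each gene, the strongest row of the authors' ranked list of both replicates was taken whose summit lay between 500 bases upstream of the first base of the gene and its end. A row is a candidate peak with a signal (scale not given in the sources used here) and an irreproducible discovery rate (IDR), which is low when the ranks of a peak in 2 sets of calls go together. The list held 120637 rows, 1.20 per kb of genome with a median signal of 23.5, and 704 of them had an IDR at or under 0.01 and are called passing. The replicates' own lists held 58090 and 61509 rows with median signals of 16.9 and 18.3, so a signal is read against the other rows of its own list. Most rows of the list of both replicates are therefore not peaks that the authors kept, and a gene with a row is not for that reason a bound gene. The files used here hold no read counts, so the depth is unknown. The labels fitted the positions of most genes but not all. No protein-coding gene was overlapped by 152 of 194 lincRNA genes, and 92 of 100 antisense RNA genes overlapped a protein-coding gene on the opposite strand. Among lincRNA genes, 21 overlapped a protein-coding gene on the opposite strand and 23 on the same strand.

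The sequences under the strongest summits of the genes the results turn on are given here so that their make-up can be read beside the values. Each runs 201 bases, centred on the summit and on the strand of the gene, in the RefSeq sequence of WBcel235 (ce11), and capitals mark a GA repeat (GAGAGAGA) or the core of the B box of tRNA promoters (GTTCGANNC, on either strand). They are chrIII:10816947-10817147 for linc-129, chrX:16002959-16003159 for linc-7, chrII:1071805-1072005 on the minus strand for linc-13, chrV:13624301-13624501 for F53F4.25, chrV:13273560-13273760 for F32F2.2 and chrX:16271214-16271414 for W10G6.5, on the plus strand except for linc-13.
linc-129: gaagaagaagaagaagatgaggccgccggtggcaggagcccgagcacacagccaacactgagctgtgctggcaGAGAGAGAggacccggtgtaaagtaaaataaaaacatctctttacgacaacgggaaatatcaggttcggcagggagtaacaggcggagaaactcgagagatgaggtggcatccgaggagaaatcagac
linc-7: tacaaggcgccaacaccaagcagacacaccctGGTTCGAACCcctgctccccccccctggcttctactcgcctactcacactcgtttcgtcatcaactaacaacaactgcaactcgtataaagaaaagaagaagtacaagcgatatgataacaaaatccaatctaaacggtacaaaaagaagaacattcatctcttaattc
linc-13: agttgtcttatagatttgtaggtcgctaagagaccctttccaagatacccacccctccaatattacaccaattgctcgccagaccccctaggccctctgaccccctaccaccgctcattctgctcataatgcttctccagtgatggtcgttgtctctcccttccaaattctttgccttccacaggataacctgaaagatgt
F53F4.25: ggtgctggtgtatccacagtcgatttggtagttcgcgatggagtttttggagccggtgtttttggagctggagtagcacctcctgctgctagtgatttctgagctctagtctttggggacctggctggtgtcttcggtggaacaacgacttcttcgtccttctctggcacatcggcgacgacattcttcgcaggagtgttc
F32F2.2: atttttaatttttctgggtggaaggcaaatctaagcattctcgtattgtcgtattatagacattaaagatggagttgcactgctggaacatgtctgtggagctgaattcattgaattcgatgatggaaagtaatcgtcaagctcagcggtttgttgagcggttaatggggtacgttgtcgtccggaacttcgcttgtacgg
W10G6.5: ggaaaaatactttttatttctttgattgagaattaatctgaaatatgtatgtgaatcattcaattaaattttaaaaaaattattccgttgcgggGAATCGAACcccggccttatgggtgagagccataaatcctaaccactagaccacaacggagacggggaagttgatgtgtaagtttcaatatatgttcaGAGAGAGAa

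linc-129 was the lincRNA gene with a passing summit. It lies on chromosome III from 10817263 to 10821245 on the plus strand, 3983 bases long with 2 exons, and its strongest row ran from 10816917 to 10817176 with the summit upstream at -216 bases from the first base. The signal there was 68.4 in the list of both replicates, 31.6 in the list of replicate 1 and 35.4 in the list of replicate 2, and the IDR was 0.0095, just inside the threshold. Both replicates thus had a row at this summit, at ranks 2297 and 1816 of their own lists. The same stretch is the promoter of sca-1, the calcium ATPase of the sarcoplasmic and endoplasmic reticulum, which has the summit at -197 bases from its own start and runs in the opposite direction, and it also holds the ncRNA gene K11D9.6, so the row cannot be given to 1 of these genes. All the words of 31 bases in the sequence under the summit were unique in the genome. The other 5 rows in the window of linc-129 had signals of 58.3, 51.9, 45.5, 38.5 and 22.8, and 4 of its 6 rows had an IDR at or under 0.05. An antisense RNA gene of sca-1, K11D9.5, had a strongest signal of 46.1 at an IDR of 0.113, inside a coding exon of sca-1.

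The next lincRNA genes were just outside the threshold. linc-7, on chromosome X from 16002599 to 16003728, had the highest lincRNA signal, 69.1, in the list of both replicates. Its signal was 35.0 in replicate 1 and 33.3 in replicate 2, at an IDR of 0.0238, with the summit 460 bases into its single exon and inside C09G1.4 on the opposite strand, outside its coding exons. The sequence of linc-7 above holds the B box core on both strands at the same place, and no tRNA gene is annotated there. linc-90, on chromosome III from 352222 to 355402, had 66.1 at an IDR of 0.0160 and lies opposite gei-4; its signals were 36.1 in replicate 1 and 25.3 in replicate 2. linc-13, on chromosome II from 1071507 to 1071839, had 66.6 at an IDR of 0.0176, with the summit at -66 bases, and 26.2 and 39.8 in replicates 1 and 2. These 3 genes had signals like that of linc-129, and the threshold fell between them by IDR and not by signal.

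anr-20 was the antisense RNA gene with passing summits. It lies on chromosome I from 9382458 to 9383548 on the plus strand, opposite ppfr-1, a regulatory subunit of protein phosphatase, with its strongest summit outside the coding exons of that gene. Its strongest row, from 9382866 to 9383125 with the summit 538 bases into the gene, had a signal of 79.2 and an IDR of 0.00851, the highest signal of all 294 genes, with 35.1 in replicate 1 and 37.8 in replicate 2. Another passing row overlapped it, with the summit at 9383200, an IDR of 0.00849 and a signal of only 12.8, so the list gave the weaker row the same standing. The summit also lies at the edge of F16A11.7, a name annotated as ncRNA on both strands from 9382980 to 9383170, and only 44.4% of the words of 31 bases around it were unique; its part in the result was not tested. With windows of over 90% unique words alone, no antisense RNA gene had a passing summit. Of the placement of reads with several matches nothing is stated in the labels.

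In all, 2 of 294 genes, 0.680% (0.0825 to 2.44%), had a passing summit, against 1.38% of all 46926 genes (background) and 2.02% of 19985 protein-coding genes. The share was 0.516% of lincRNA genes (1 of 194, 0.0131 to 2.84%) and 1.00% of antisense RNA genes (1 of 100, 0.0253 to 5.45%). Intervals in brackets here and below are 95% exact Clopper-Pearson bounds and cover the counting of genes only. The intervals held the background share, so a difference from it was not detectable at these counts. Short non-coding RNA genes did not go 1 way. Of 634 tRNA genes 10.7% and of 346 snoRNA genes 10.1% had a passing summit, above the interval of both biotypes. The snRNA share, 6.20%, was also above both intervals. The miRNA share, 1.92%, lay inside both. The piRNA share, 0.0195%, lay inside the lincRNA interval and below the antisense interval. Both anr-20 and linc-129 were in the authors' final list, which had a summit in the windows of 1.35% of all genes, and anr-20 alone was in their conservative list. In the lists of the replicates taken alone, none of the 294 genes had a passing summit (0 to 1.25%), where 0.215% of all genes did in replicate 1 and 0.254% in replicate 2.

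At an IDR of 0.05 the biotypes stood further apart. The count was 4 of 194 lincRNA genes, 2.06% (0.565 to 5.20%), and 10 of 100 antisense RNA genes, 10% (4.90 to 17.6%), against 5.53% of all genes and 9.51% of protein-coding genes. The lincRNA interval ended below both background shares, and the antisense interval held both. The lincRNA and antisense intervals overlapped. These shares were not matched for length, and the median gene was 761 bases at lincRNA, 689 at antisense RNA and 2026 at protein-coding genes. The lincRNA genes were linc-7, linc-129, linc-13 and linc-90, and the antisense RNA genes were anr-20, F53F4.25, F32F2.2, W10G6.5, anr-48, F48C1.15, Y57G11C.1132, Y49A3A.6, anr-36 and anr-49.

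**Figure D1:**
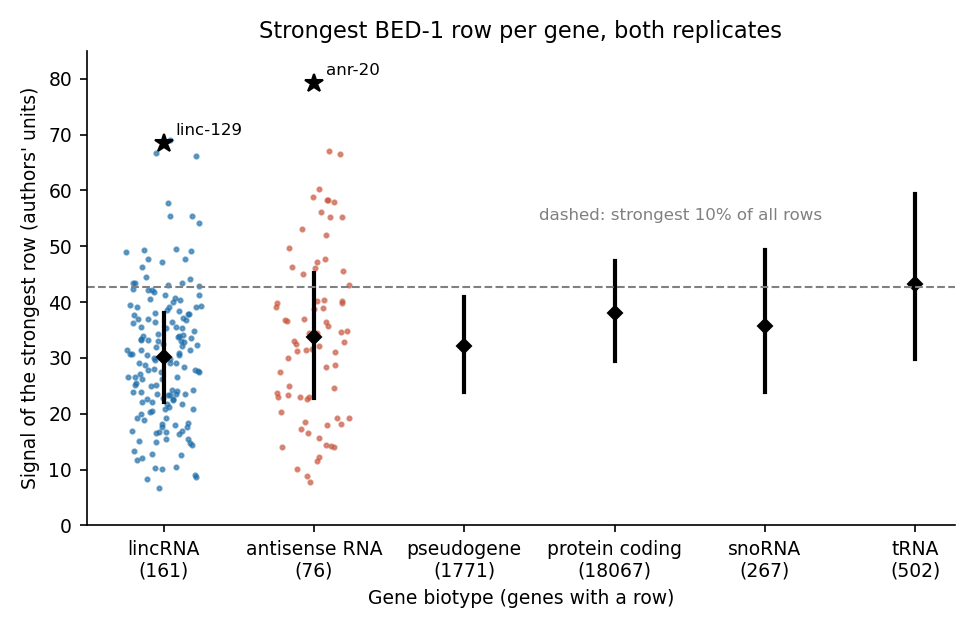
Signal of the strongest row per gene (vertical axis, in the authors' units) by biotype, lincRNA and antisense RNA genes first and other biotypes after them. Coloured points are genes, stars are the genes with a passing summit, diamonds and bars are medians and interquartile ranges, and the dashed line at 42.8 marks the strongest 10% of all rows; the lincRNA median of 30.1 and the antisense median of 33.7 lie below the protein-coding median of 38.0.

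A row of any strength was found at 161 of 194 lincRNA genes, 83.0% (76.9 to 88.0%), and at 76 of 100 antisense RNA genes, 76.0% (66.4 to 84.0%), against 90.4% of protein-coding genes, 66.0% of all genes and 84.5% of all genes without the piRNA genes. The median signal of these strongest rows was 30.1 (interquartile range 22.1 to 38.0) at lincRNA genes and 33.7 (22.8 to 45.2) at antisense RNA genes, against 38.0 (29.5 to 47.3) at protein-coding genes and 32.1 at pseudogenes. The lowest signals were 6.71 at linc-73 and 7.68 at T03D8.8. All the rows in the windows were about as dense as over the genome, 1.17 per kb at lincRNA genes and 1.19 at antisense RNA genes.

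The strongest 10% of rows, those with a signal of at least 42.75, separated the biotypes more than the medians did. The strongest row was in that range at 23 of 194 lincRNA genes, 11.9% (7.67 to 17.3%), and at 21 of 100 antisense RNA genes, 21.0% (13.5 to 30.3%), against 18.4% of all genes and 32.4% of protein-coding genes. The intervals of both biotypes overlapped, and the lincRNA interval ended below the share of all genes. Over all genes without the piRNA genes, which are very short, the share was 26.5%. Per Mb of window there were 77.8 such rows at lincRNA genes and 159.9 at antisense RNA genes, against 128.5 at protein-coding genes. Position and biotype went together here. The share was 19.05% of the lincRNA genes opposite a protein-coding gene (4 of 21) and 11.84% of those overlapping none (18 of 152). It was 20.65% of the antisense RNA genes opposite a protein-coding gene (19 of 92). The part of such overlap in the difference between the biotypes was not tested.

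Longer windows hold more rows, so the same shares were taken within classes of window length, the gene plus 500 bases. Under 1 kb, 5.97% of lincRNA genes (4 of 67) and 13.95% of antisense RNA genes (6 of 43) had a row in the strongest 10%, against 11.9% of protein-coding genes and 7.21% of all other genes. From 1 to 2 kb the shares were 8.45% of lincRNA genes (6 of 71) and 21.6% of antisense RNA genes (8 of 37), against 19.9% of protein-coding genes and 19.1% of all other genes. Over 2 kb they were 23.2% of lincRNA genes (13 of 56) and 35.0% of antisense RNA genes (7 of 20), against 39.8% of protein-coding genes and 39.1% of all other genes. In each class the lincRNA share was lower than the antisense share. These classes rest on few genes, no interval was taken within them, and they were made in the list of both replicates alone. Over all lengths that order was reversed in replicate 1. The classes do not make lengths equal: over 2 kb the median window was 2828.5 bases at lincRNA genes and 2710 at antisense RNA genes, against 3465 at protein-coding genes. Under 1 kb it was 842 and 795, against 850 at protein-coding genes and only 521 at all other genes. The median signals went the same way, with 26.6 and 31.6 under 1 kb, 28.9 and 32.8 from 1 to 2 kb, and 34.1 and 36.6 over 2 kb at lincRNA genes and at antisense RNA genes.

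**Figure D2:**
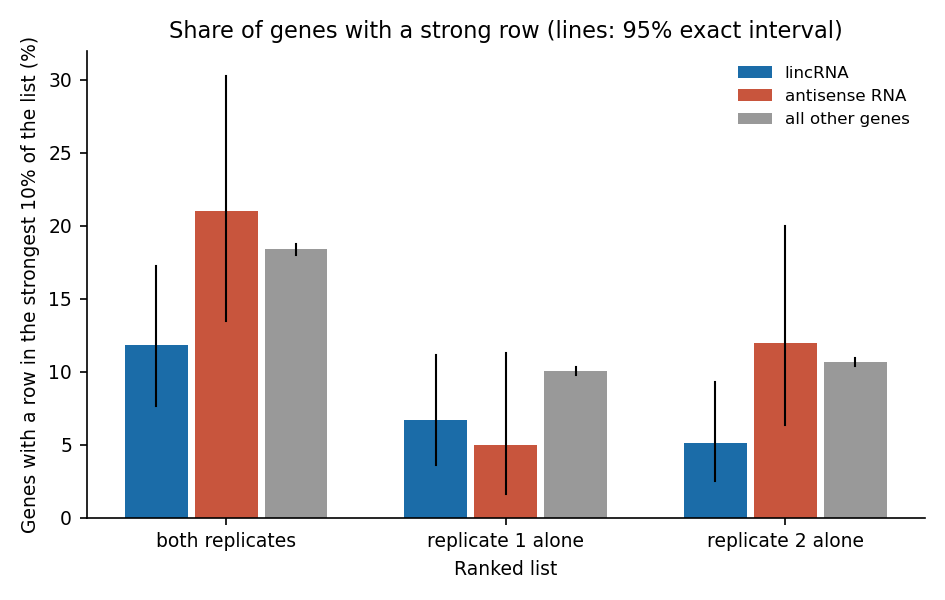
Percent of genes whose strongest row is in the strongest 10% of the list (vertical axis), for the list of both replicates and each replicate's own list, with lincRNA genes, antisense RNA genes and all other genes side by side; lines are exact 95% intervals. The antisense share is higher in the list of both replicates (21.0%, lincRNA 11.9%) and in replicate 2 (12%, lincRNA 5.15%), and lower in replicate 1 (5.00%, lincRNA 6.70%).

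The order of the biotypes was not the same in both replicates. In replicate 1 the share in the strongest 10% of that replicate's list was 6.70% at lincRNA genes (13 of 194, 3.62 to 11.2%) and 5.00% at antisense RNA genes (5 of 100, 1.64 to 11.3%), against 10.1% of all genes. In replicate 2 it was 5.15% at lincRNA genes (10 of 194, 2.499 to 9.28%) and 12% at antisense RNA genes (12 of 100, 6.36 to 20.02%), against 10.7% of all genes. The antisense share was thus the lower one in replicate 1 and the higher one in replicate 2. The medians, taken only over genes with a row in that list, kept their order in both. They were 18.4 at lincRNA genes and 21.4 at antisense RNA genes in replicate 1, and 20 and 21.4 in replicate 2. In replicate 1 a row was present at 56.2% of lincRNA genes and only 43% of antisense RNA genes. In replicate 2 the shares were 57.7% and 55%. The protein-coding medians were 21.5 in replicate 1 and 23.4 in replicate 2.

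Few genes had a row in both replicates' own lists. These were 76 of 194 lincRNA genes (39.2%) and 31 of 100 antisense RNA genes (31.0%), against 66.1% of protein-coding genes, whose windows are longer. A further 49 lincRNA genes and 33 antisense RNA genes had a row in neither. Where both replicates had one, the strongest summits lay within 100 bases of each other at 32 of 76 lincRNA genes (42.1%) and at 14 of 31 antisense RNA genes (45.2%). The share was 26.1% of the protein-coding genes with a row in both. It was not matched for window length, and longer windows hold more rows to choose from. Across genes, which are not independent replicates, Spearman's rho between the replicates was 0.36 over the 76 lincRNA genes and 0.21 over the 31 antisense RNA genes, against 0.32 over protein-coding genes. These pairs include genes whose strongest summits differed between the replicates. Where the summits lay within 100 bases, rho was 0.36 over 32 lincRNA genes and -0.28 over 14 antisense RNA genes, against 0.39 over protein-coding genes. The strongest summits of the list of both replicates were matched in both replicates' own lists at 36 of the 44 genes in the strongest 10%, 19 of 23 lincRNA and 17 of 21 antisense RNA, and at 25 of the 193 genes with weaker rows. The list of both replicates and the replicates' own lists come from the same worms, so this match is a description of the lists and no independent check. It was made for these biotypes alone, so whether strong rows at other genes match as often is not known.

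**Figure D3:**
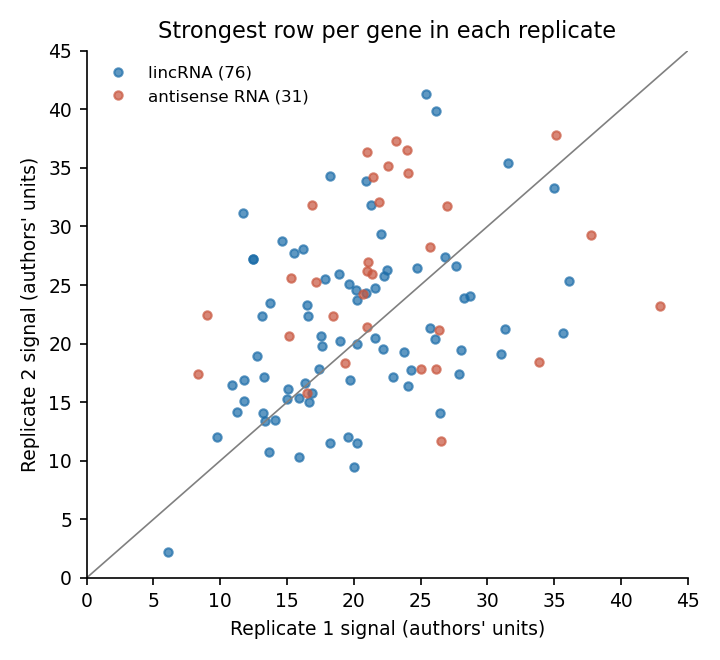
Signal of the strongest row in replicate 1 (horizontal axis) and replicate 2 (vertical axis), in the authors' units, for the 76 lincRNA and 31 antisense RNA genes with a row in both lists; the line marks equal values. The lists were made separately, so the line is a guide only, and the points scatter widely about it, with Spearman's rho of 0.36 for lincRNA and 0.21 for antisense RNA genes. The 2 rows of a gene can lie at different summits. At genes with summits within 100 bases, rho was 0.36 for lincRNA and -0.28 for antisense RNA genes.

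The antisense RNA genes next in signal after anr-20 had their strongest summits within other genes. For most genes of this biotype the label itself makes that likely, since 92 of 100 overlapped a protein-coding gene on the opposite strand. F53F4.25, on chromosome V from 13624728 to 13624912 and opposite nduv-2, a subunit of mitochondrial complex I, had a signal of 67.0 at an IDR of 0.0213. Its signal was 37.7 in replicate 1 and 29.3 in replicate 2, and the summit lay upstream at -327 bases from its first base, in a coding exon of the neighbour F53F4.11 and 123 bases after the start of that gene. F32F2.2, on chromosome V from 13273632 to 13274241, had 66.5 at an IDR of 0.0300, with the summit 28 bases into the gene, in a coding exon of uig-1, a guanine nucleotide exchange factor. That summit was also 10 bases after an annotated transcript start of uig-1, and so in its promoter. The replicates stood far apart at F32F2.2, with 42.9 in replicate 1, rank 354 of 58090 rows, and 23.2 in replicate 2, rank 16030 of 61509 rows. W10G6.5, on chromosome X from 16265943 to 16271827, is the longest antisense RNA gene at 5885 bases, and the strongest of its 8 rows had 60.3 with the summit 5371 bases into the gene. That summit lies inside a tRNA gene on the other strand, from 16271296 to 16271367, which is where the B box core stands in the sequence above; the replicates had 25.7 and 28.2.

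The next in order were anr-48 (58.9), F48C1.15 (58.3), Y57G11C.1132 (58.3) and Y49A3A.6 (57.9), whose summits lay inside fbxb-38, let-526, haf-8 and cept-2. let-526 encodes a subunit of a SWI/SNF chromatin remodeller and haf-8 an ABC transporter. The ranks of these 4 genes in the list of replicate 1 were 5613, 11369, 12635 and 16463, and in the list of replicate 2 they were 3636, 1315, 1895 and 1557. Of all 76 strongest summits at antisense RNA genes, 66 lay inside a protein-coding gene and 36 of those in a coding exon, while 6 lay outside protein-coding genes and their promoters. Their median signals were 33.7 inside genes, 35.3 in coding exons and 34.0 outside. At lincRNA genes 24 of 161 summits lay inside a protein-coding gene, 3 of those in a coding exon, and 122 lay outside. The lincRNA medians were 29.5 inside genes, 33.2 in coding exons and 30.6 outside. For a summit that 2 genes share, the signal belongs to the DNA and cannot be told apart by strand.

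Among the other lincRNA genes in the strongest 10% was lep-5, on chromosome X from 12652591 to 12653520, an RNA that acts in developmental timing and in shaping the male tail tip. Its strongest row had a signal of 54.2 at an IDR of 0.0597, 719 bases into the gene, and the replicates differed, with 18.2 in replicate 1, rank 24519 of its list, and 34.3 in replicate 2, rank 2248. Its other rows had 29.3 and 8.54. The longest lincRNA gene, linc-136, 6035 bases on chromosome V, had 49.2 at 5641 bases from its start, with 22.3 and 25.8 in replicates 1 and 2. linc-22, on chromosome X from 9069138 to 9073735, had 7 rows, none above 30.9, and linc-3, on chromosome V from 3012695 to 3013087, had 29.1 at -8 bases. Neither replicate's own list had a row within 100 bases of that linc-3 summit, and replicate 2 had none in the window. The strongest row of linc-110 and of linc-133, which overlap on opposite strands of chromosome II, was the same one, with a signal of 39.0.

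Summit positions followed the make-up of the window. The strongest summit was upstream of the first base at 67 of 161 lincRNA genes, 41.6% (33.9 to 49.6%), where the upstream part was on average 40.2% of the window. It was upstream at 31 of 76 antisense RNA genes, 40.8% (29.7 to 52.7%), where the upstream part was 42.3% of the window. With the gene cut into 3 equal parts, lincRNA summits lay in the opening part at 40 genes (24.8%, 18.4 to 32.3%), in the middle part at 27 and in the closing part at 27, where each part was 19.9% of the window. Antisense RNA summits lay in each of the 3 parts at 15 genes, 19.7%, where each part was 19.3% of the window. The intervals held the share of the window in these parts, so neither biotype showed a pile-up of its strongest summits at its start beyond what counting allows.

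The median summit lay 61 bases after the first base at lincRNA genes and 70.5 bases after it at antisense RNA genes, and 65 of 161 lincRNA and 29 of 76 antisense RNA summits lay within 200 bases of it. The median signal at lincRNA genes was 28.0 for summits upstream and 32.3, 27.9 and 33.6 for those in the opening, middle and closing parts. At antisense RNA genes the medians were 31.6 upstream and 32.1, 36.4 and 36.6 in the parts. Counting all rows, the density at lincRNA genes was 1.31 per kb upstream and 1.12 per kb in the gene, at antisense RNA genes 1.12 and 1.23, and at protein-coding genes 1.13 and 1.27. Rows of the strongest 10% numbered 72.2 per Mb upstream and 80.1 per Mb in lincRNA genes, and 140 and 169.8 at antisense RNA genes. At protein-coding genes they numbered 116.8 and 130.3. The lincRNA values rest on 7 and 19 rows and the antisense values on 7 and 17.

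**Figure D4:**
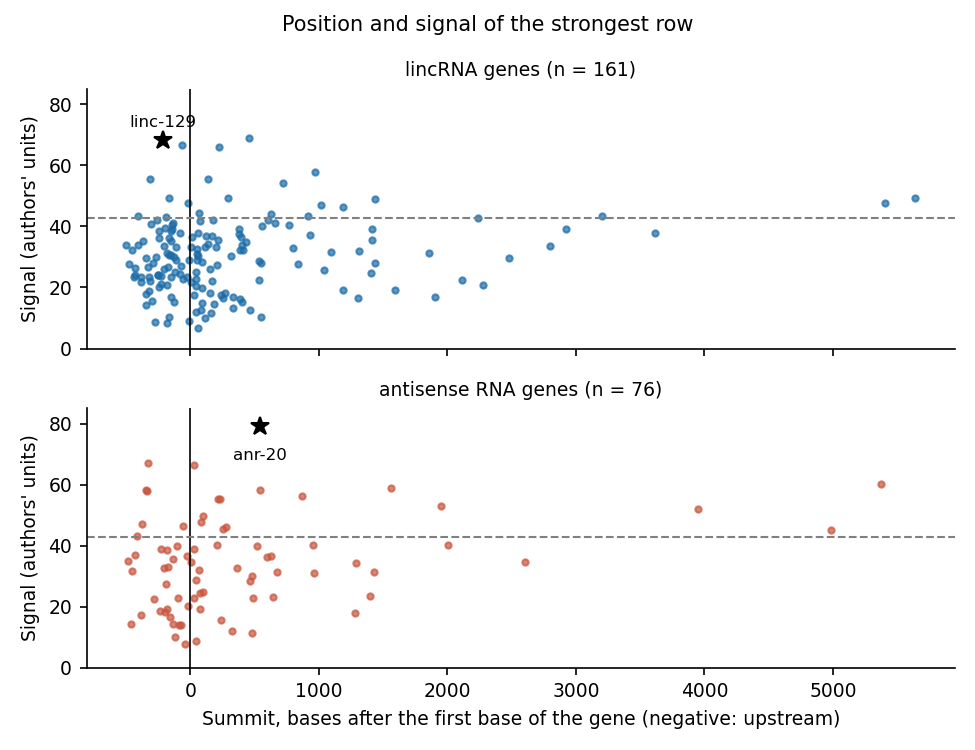
Signal of the strongest row (vertical axis, in the authors' units) against the distance of its summit from the first base of the gene in bases (horizontal axis, negative upstream), lincRNA genes above and antisense RNA genes below. Each point is a gene, the stars are linc-129 at -216 and anr-20 at 538, the dashed line is a signal of 42.8, and points above it lie on both sides of the first base.

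The genes in the strongest 10% had a higher GC content at the summit than the rest, and among lincRNA genes they were also longer. The median GC content of the 201 bases around the summit was 43.8% at the 23 strong lincRNA genes and 37.3% at the other 138 with a row, and 42.8% at the 21 strong antisense RNA genes and 37.3% at the other 55. Across genes, signal and GC content had a Spearman's rho of 0.40 over 161 lincRNA genes and 0.52 over 76 antisense RNA genes, and signal and window length had 0.29 and 0.21. These points share 1 list and its GC content, the median of which was 44.8% over passing rows and 38.3% over all rows, and the part of base composition in the result was not tested. Median gene length was 1873 bases at the strong lincRNA genes and 671.5 at the others, and 753 and 708 at the antisense RNA genes.

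Of the motifs searched on both strands within 100 bases of the summit, the GA repeat was in 7 of 160 lincRNA windows (4.38%) and in 4 of 76 antisense RNA windows (5.26%), against 1.28% of the windows at protein-coding genes, 1.53% over all rows and 1.705% of passing rows. Among the holders were linc-129 with 68.4, W10G6.5 with 60.3, anr-36 with 55.2 and linc-136 with 49.2, and the lowest was linc-50 with 20.5. The B box core was in 5 lincRNA windows (3.12%) and 4 antisense RNA windows (5.26%), against 2.34% at protein-coding genes, 2.01% over all rows and 9.80% of passing rows. TATCGATA, the site of the Drosophila BED finger protein DREF, was in none of the windows of either biotype. It was in 0.288% of the windows at protein-coding genes, in 0.290% over all rows and in none of 704 passing rows. At so low a share, its absence from 160 and 76 windows says little. A match is a description of the letters only. The strongest summits of 2 lincRNA genes lay within 200 bases of a short structural RNA gene, linc-44 (36.5) by a tRNA gene and K07C10.8 (41.3) by the snoRNA gene K07C10.2, beside W10G6.5 among the antisense RNA genes.

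By chromosome, the median signal of lincRNA genes was between 26.2 on chromosome V and 32.2 on chromosome II, and that of antisense RNA genes between 31.1 on chromosome IV and 43.1 on chromosome X. The X value rests on the 6 of 7 antisense RNA genes there that had a row. On X, 3 of 38 lincRNA genes and 3 of 7 antisense RNA genes had a row in the strongest 10%. On the autosomes the shares were 12.8% of 156 lincRNA genes and 19.4% of 93 antisense RNA genes, against 18.4% of all genes of the genome. The share over all genes of X was not taken, so these counts show no enrichment on X. Among the 3 antisense RNA genes was W10G6.5, with its summit inside a tRNA gene. The 33 lincRNA genes and 24 antisense RNA genes with no row in the list of both replicates had median lengths of 796 and 385.5 bases, and over 90% of the words of 31 bases in the window were unique at 27 and 18 of them. linc-167, 5651 bases on chromosome I, was the longest of these; in the list of replicate 2 its strongest row had a signal of 16.9.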

How the data were processed

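BED-1 ChIP-seq peak lists of 2 biological replicates of 1 group were used. The authors deposited, per the file headers and labels, ranked and final lists per replicate and for both replicates, in build ce11 (WBcel235). The deposited ranked lists give a signal per row, with no stated scale, and the −log10 of the global IDR. The deposited final lists give a score per peak and were used only for membership. Aligner, peak caller and the 2 call sets compared in the list of both replicates: not given in the sources used here. Depth is unknown.

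Genes came from Ensembl release 115, sequences from RefSeq. The strongest row by signal was taken per gene window (500 bases upstream to the gene end), in Python 3.11.15 with pandas 2.3.3, numpy 2.4.6, scipy 1.17.1 and matplotlib 3.10.9, and the window rule was tested on simulated data. Promoters ran from 500 bases upstream to 200 downstream of protein-coding starts. A replicate matched a summit within 100 bases. No test was run, since genes are not replicates. Named genes were, per biotype, the 12 highest signals among passing genes, all genes in the final list, genes of known role (lep-5, linc-22 and linc-3; tts-1 and rncs-1 carry the biotype ncRNA), the longest, and the 2 on each side of the IDR threshold; others were named after their values were seen. Members, lists and the measure of the strongest 10% were chosen with earlier results of these data known. Alternatives covered the window, list, replicate, IDR, repeats, shared peaks and short RNA genes.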

Additional observations from a re-analysis of the deposited data

How the results depend on the processing

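Of the alternative values, 57 kept the main result, 37 moved and 1 was reversed. The rule for keeping differed by result, so these totals mix unlike tolerances. Counts had to stay within a set ratio, and upstream percents within the exact interval of the main value. Medians and differences had to stay within the standard deviation of the values without replicate 1 and without replicate 2. The count of passing lincRNA genes (1) was 0 with 200 bases upstream, 2 with 1000 bases upstream, 0 in the other ranked list of both replicates, 0 in the conservative list, 0 at an IDR of 0.001 and 4 at 0.05. The count of passing antisense RNA genes (1) was 0 with unique windows only, 0 at an IDR of 0.001 and 10 at 0.05. Without either replicate both counts were 0. The lincRNA median signal (30.1) was 33.7 with 1000 bases upstream and 28.0 with the row chosen by IDR, and 18.4 to 20 without a replicate, in lists with lower signals throughout. The antisense median (33.7) was 32.3 with 200 bases upstream, 34.5 with 1000, 33.0 without summits near short RNA genes, 32.6 with unique windows only and 32.3 by IDR, and 21.39 to 21.43 without a replicate. The percent of summits upstream was 25 with 200 bases and 58.8 with 1000 at lincRNA genes, and 24.3 and 56.6 at antisense RNA genes, since the window itself changes. The count of lincRNA genes in the strongest 10% (23) was 40 with 1000 bases upstream and 10 to 13 without a replicate, and that of antisense RNA genes (21) was 5 to 12. The lincRNA minus antisense RNA difference in that share (-9.14 percentage points) ran from -6.85 to 1.70 without a replicate, reversed without replicate 2, at 1.70. It was -5.175 with 200 bases upstream and -5.381 with 1000, which the wide tolerance of this difference counted as kept. The difference in medians (-3.56) was -2.06 with 200 bases, -0.867 with 1000, -2.27 with unique windows only and -3.003 to -1.395 without a replicate. Apart from the window, the causes were not tested. No paired analysis was possible because there is only 1 group. The number of genes limits every share, and with unknown depth no row can be called absent from the worms.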
